A study of Mus musculus with 9 samples.

Results

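Cholesterol is made, taken up, stored and exported by a set of well-known gene products, and 32 of their genes were followed in the injured mouse spinal cord. The 32 genes were chosen by name, as a list of sterol genes, from the 52550 genes of a table of raw read counts, and all of them were found there and had enough counts to be tested. They were grouped by role into 18 enzymes of cholesterol synthesis, 5 genes of sterol sensing and transcription, 4 genes of lysosomal release and transport within the cell, and 5 genes of storage, efflux and oxysterol formation. RNA came from the spinal cord of 9 adult female C57BL/6N mice on day 7, in groups of 3 called Sham, SCI and SCI+FIPI. Sham mice had a laminectomy with no contusion, mice of the SCI group had a contusion at the tenth thoracic level with injections of dimethyl sulfoxide (DMSO), and SCI+FIPI mice had the same contusion with daily intraperitoneal FIPI, a small-molecule inhibitor of phospholipase D that was dissolved in DMSO. No vehicle is described for the Sham mice, so contusion and DMSO cannot be told apart in a comparison with Sham.

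As background, cells build cholesterol from acetyl-CoA through mevalonate, squalene and lanosterol. When sterols in the endoplasmic reticulum run low, the escort protein SCAP carries the transcription factor SREBP2 to the Golgi, where it is cut free to enter the nucleus and raise the genes of the synthesis enzymes, whereas INSIG proteins hold the complex back when sterols are plentiful. When sterols are plentiful, oxysterols activate the nuclear receptors LXRα and LXRβ, which raise genes of cholesterol export such as Abca1 and Abcg1. In the central nervous system most cholesterol lies in myelin and is made locally, and phagocytes that clear myelin debris after injury take up large amounts of it.

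The promoters of 26 of the 32 genes were found in RefSeq on the build GRCm38.p6, and the 250 bases before each gene start were searched on both strands for 3 motifs. The first was the classical sterol regulatory element TCACNCCAC, to which SREBPs bind, which occurred in 1 of the 26 genes (3.85%), Hmgcs1, and in 1.22% of all 27025 genes with a promoter sequence. The second was the CCAAT box, written ATTGG on the other strand, of NF-Y, a factor known to act beside SREBPs at sterol genes. It occurred in 20 of the 26 genes (76.9%) and in 37.5% of all genes with a promoter sequence. The third was the LXR direct repeat, searched only as an exact pair of AGGTCA half-sites with 4 bases between them. This exact pair occurred in 0 of the 26 genes and in only 0.0148% of all genes with a promoter sequence. With so strict a pattern, 0 of 26 cannot show whether these promoters hold a less exact LXR repeat. The sterol regulatory element was likewise searched only as written, so less exact forms of it were not counted. The letters of the 3 motifs do not overlap in the stretches shown. A match is a description of letters in this window and not a binding site.

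The stretches before the gene start are shown for 5 genes that stand for the patterns described below, namely the early enzyme gene Hmgcs1 and the feedback gene Insig1, which were both lower in the SCI group, the enzyme genes Mvk and Ebp, which did not pass both limits of the call, and the efflux gene Abca1, which was higher. Capitals mark TCACNCCAC and CCAAT on either strand. All run 5′ to 3′ toward the gene on GRCm38.p6 and stop before its first annotated exon.
Hmgcs1 (chr13:119690101-119690350, forward strand): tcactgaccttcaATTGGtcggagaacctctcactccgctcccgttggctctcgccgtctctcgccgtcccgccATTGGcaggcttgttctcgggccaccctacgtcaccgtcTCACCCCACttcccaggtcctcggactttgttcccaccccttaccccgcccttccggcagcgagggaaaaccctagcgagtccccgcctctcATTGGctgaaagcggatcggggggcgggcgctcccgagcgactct
Insig1 (chr5:28071162-28071362, forward strand): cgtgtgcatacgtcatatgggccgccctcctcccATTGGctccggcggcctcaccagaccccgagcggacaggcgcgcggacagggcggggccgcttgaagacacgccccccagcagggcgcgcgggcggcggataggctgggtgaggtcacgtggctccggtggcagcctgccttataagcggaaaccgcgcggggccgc
Mvk (chr5:114444019-114444268, forward strand): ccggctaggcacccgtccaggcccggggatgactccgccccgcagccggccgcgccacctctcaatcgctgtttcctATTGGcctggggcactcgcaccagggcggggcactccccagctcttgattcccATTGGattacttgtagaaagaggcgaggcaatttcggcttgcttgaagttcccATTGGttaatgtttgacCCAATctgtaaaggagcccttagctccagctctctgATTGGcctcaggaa
Ebp (chrX:8193513-8193762, reverse strand): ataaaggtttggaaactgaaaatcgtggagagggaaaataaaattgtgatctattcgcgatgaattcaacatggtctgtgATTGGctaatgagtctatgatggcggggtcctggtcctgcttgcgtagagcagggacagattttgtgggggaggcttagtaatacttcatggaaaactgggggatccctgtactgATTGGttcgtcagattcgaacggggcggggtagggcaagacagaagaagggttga
Abca1 (chr4:53159896-53160145, reverse strand): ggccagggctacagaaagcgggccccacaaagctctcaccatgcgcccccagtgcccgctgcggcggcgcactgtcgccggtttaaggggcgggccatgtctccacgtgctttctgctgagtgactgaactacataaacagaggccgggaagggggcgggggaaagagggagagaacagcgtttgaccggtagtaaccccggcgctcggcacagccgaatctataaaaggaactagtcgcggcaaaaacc
The Hmgcs1 stretch held TCACCCCAC between 129 and 137 bases before the start and 3 CCAAT boxes, the Mvk stretch held 5 CCAAT boxes, the Ebp stretch held 2, the Insig1 stretch held 1, and the Abca1 stretch held neither motif.

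Sequencing gave between 20806000 and 24582377 counts per mouse. Pairs of mice within a group gave a chi-square of 6.59 to 12.7 per gene, more than sampling noise would give, so no 2 libraries were merged. A gene was called higher or lower where its log2 fold change was 0.5 or more in size and its adjusted p-value was below 0.05 in edgeR's quasi-likelihood test over 18699 genes, with Benjamini-Hochberg adjustment. All adjusted p-values below come from this test. Levels are given as CPM, read counts scaled to the TMM-normalized total of each mouse. Because whole tissue was sequenced, fewer cells of a type and less RNA per cell cannot be told apart.

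Between the SCI and Sham groups the 32 genes divided by role. In the SCI group 19 of the 32 were called lower, among them 15 of the 18 synthesis enzymes, and 8 were called higher, namely 7 genes of lysosomal release, storage, efflux or oxysterol formation and the LXRα gene. Of all genes tested, 22.5% were called lower and 24.4% were called higher. The median log2 fold change was -0.99 over the 18 enzymes, 1.17 over the 4 lysosome and transport genes and 1.64 over the 5 storage, efflux and oxysterol genes, while it was -0.003 over all genes tested. In 17 of the 18 enzymes every SCI mouse lay below every Sham mouse, as in 35% of all genes tested. All 17 had an adjusted p-value under 0.05, and of all genes that were lower at this limit 97.6% showed the same separation.

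**Figure D1:**
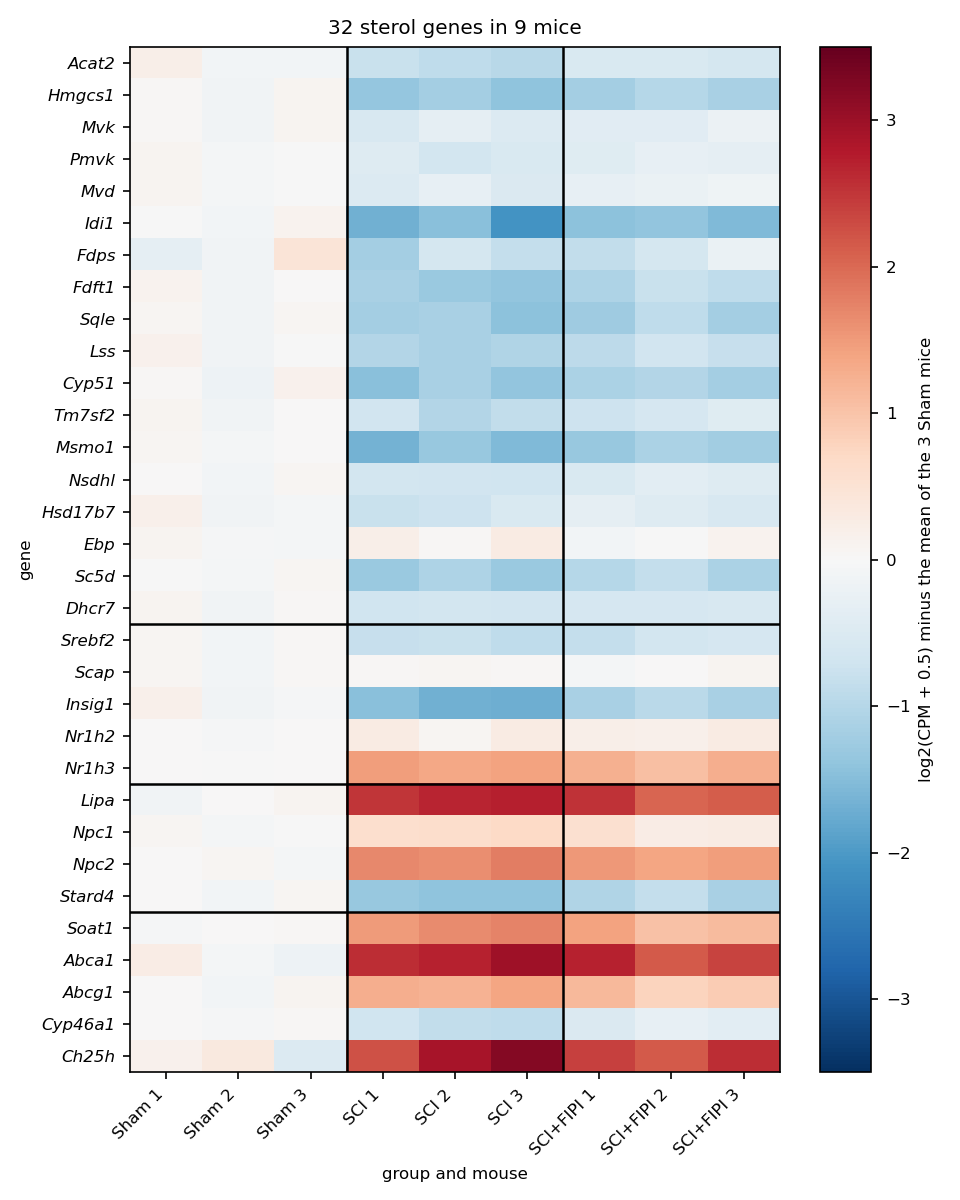
Level of each of the 32 sterol genes in each of the 9 mice, as log2(CPM + 0.5) minus the mean of the 3 Sham mice, with rows in the order of the roles (synthesis, sensing, lysosome and transport, storage and efflux) and columns by group. Blue fills most of the 18 enzyme rows in the SCI and SCI+FIPI columns, and red fills Lipa, Npc2, Soat1, Abca1, Abcg1 and Ch25h.

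The first enzymes of the pathway form and phosphorylate mevalonate. Hmgcs1 (ENSMUSG00000093930, forward strand, chr13:119690379-119708260 in GRCm38), which encodes the cytosolic HMG-CoA synthase, had 274, 242 and 283 CPM in the 3 Sham mice and 103, 115 and 98.97 CPM in the 3 SCI mice. Its highest SCI value lay far under its lowest Sham value, with a difference of -1.33 on the log2 scale (standard error 0.08, adjusted p = 2.34e-09). Acat2, the thiolase that joins acetyl-CoA units, fell by 0.90 on the log2 scale (adjusted p = 4.56e-07), from 54.9, 44.2 and 44.2 CPM to 27.4, 25.3 and 24.1 CPM. Of the sequence of Acat2, 45.9% of its 50-base stretches also occur in Acat3, so its counts are uncertain. The 3 enzymes that phosphorylate and decarboxylate mevalonate changed less. Pmvk was called lower at -0.55, while Mvk (-0.46, adjusted p = 0.000443) and Mvd (-0.44, adjusted p = 0.000335) passed the p-value limit but not the fold limit. With offsets correcting for GC content and length, both were called lower, at -0.81 and -0.76. The mean of the SCI group was 72.5% of the Sham mean for Mvk and 73.8% for Mvd.

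The middle enzymes turn isoprenoid units into squalene and lanosterol. Idi1 (ENSMUSG00000058258, forward strand, chr13:8885501-8892451 in GRCm38), the isomerase that supplies the reactive isoprenoid unit, showed the largest fall of all 18 enzymes, from 32.2, 30.02 and 35.02 CPM in the Sham mice to 9.81, 11.4 and 7.21 CPM in the SCI mice (log2 fold change -1.77, standard error 0.13, adjusted p = 3.57e-08). Fdft1, squalene synthase, fell from 105, 88.0 and 97.4 CPM to 43.5, 38.8 and 36.6 CPM (log2 fold change -1.29, adjusted p = 2.68e-08). Sqle, squalene epoxidase and a known control point of the pathway, fell from 99.4, 87.6 and 98.996 CPM to 41.2, 43.1 and 34.8 CPM (log2 fold change -1.26, adjusted p = 2.83e-07). In each of these 3 genes the SCI mice lay together well under the Sham mice. Lss, which closes the ring to lanosterol, kept 47.3% of its Sham level (log2 fold change -1.08). Fdps, farnesyl diphosphate synthase, was listed with only 10 to 57 counts per mouse, and its fall of 1.35 on the log2 scale (standard error 0.37, adjusted p = 0.00515) is therefore imprecise. Its counts are also uncertain because 26.7% of its exonic length overlaps Gm43738 on the same strand and 11.7% of such stretches of Fdps are found elsewhere in the annotation. Gm43738 was listed with 0 or 1 count per mouse, while Gm3571, which shares such stretches, had 66 to 81 counts in the Sham mice and 34 to 43 in the SCI mice, above every Fdps count of the same group. Idi1 and Fdft1 share 21.3% and 10.9% of such stretches with other annotated genes, of which Gm13502 and Gm6781 had at most 7 counts in any mouse.

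The late enzymes trim and reduce lanosterol to cholesterol. Msmo1, the methylsterol monooxygenase, fell from 99.97, 92.1 and 96.2 CPM in the Sham mice to 30.2, 38.3 and 32.3 CPM in the SCI mice (log2 fold change -1.52, standard error 0.08, adjusted p = 1.29e-09). Cyp51, the lanosterol demethylase, fell from 120.3, 104 and 129 CPM to 42.6, 53.1 and 45.2 CPM (log2 fold change -1.33, adjusted p = 3.31e-08), and Sc5d, a sterol desaturase, from 123, 118 and 129 CPM to 50.03, 58.1 and 49.7 CPM (log2 fold change -1.23, adjusted p = 4.79e-09). All 3 genes were at less than the lowest Sham value in every SCI mouse. The log2 fold changes of the other late enzymes that were called were smaller, with -0.87 for the sterol reductase Tm7sf2 and -0.69 each for Nsdhl, Hsd17b7 and Dhcr7. The Tm7sf2 exons overlap those of Vps51 on the same strand over 12.1% of their length.

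Ebp, the sterol isomerase between these steps, was the exception among the late enzymes. It had 26.3, 24.1 and 23.4 CPM in the Sham mice, 28.2, 25.1 and 30.3 CPM in the SCI mice and 22.8, 24.2 and 26.9 CPM in the SCI+FIPI mice. The groups overlapped, and the log2 fold change between SCI and Sham was 0.18 (adjusted p = 0.0957), or -0.10 with offsets correcting for GC content and length.

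The CCAAT box was spread over the 26 genes with a promoter sequence as follows. It occurred in 14 of the 15 genes called lower in the SCI group (93.3%), with Acat2 as the one without it, in 3 of the 6 called higher (50%), which were Lipa, Npc2 and Soat1, and in 3 of the 5 that were not called (60%), which were Mvk, Mvd and Ebp. Among all tested genes with a promoter sequence the share was 39.7% of those called lower, 38.4% of those called higher and 40.2% of the others. Mvk and Mvd were not called because of the fold limit alone.

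**Figure D2:**
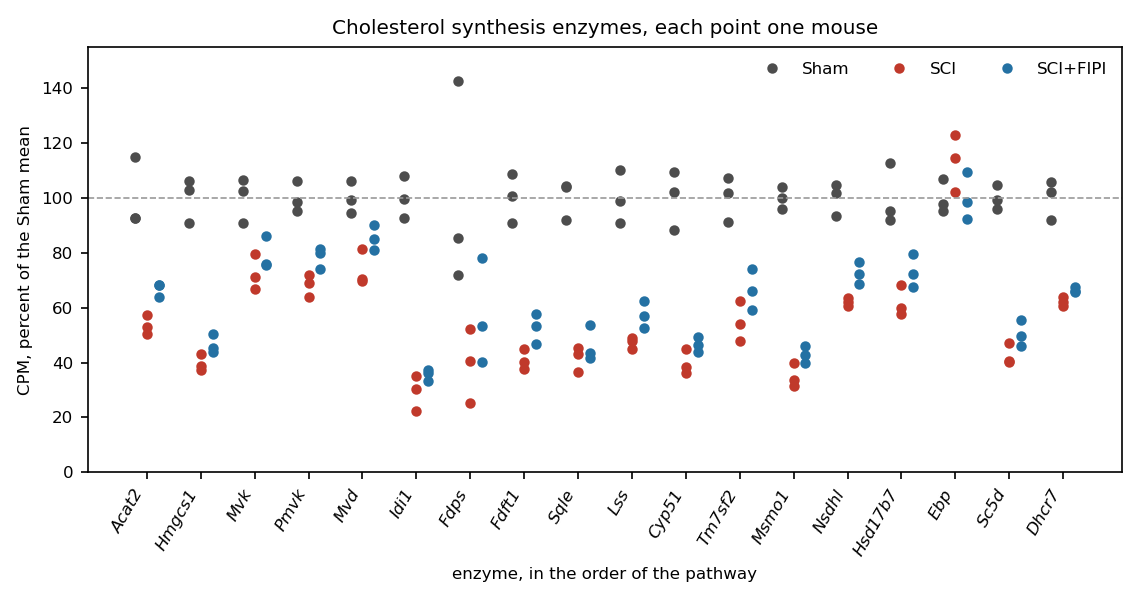
CPM of the 18 synthesis enzymes in each mouse as percent of the gene's mean in the 3 Sham mice, in the order of the pathway from left to right, with each point 1 mouse and the dashed line at 100 percent. The SCI points of all enzymes except Ebp lie under the Sham points, lowest for Idi1, and most SCI+FIPI points lie slightly above the SCI points.

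Among the genes that sense sterols, Insig1 and Srebf2 were called lower in the SCI group and the gene of LXRα was called higher. Insig1 (ENSMUSG00000045294, forward strand, chr5:28071363-28078662 in GRCm38) retains the SCAP complex in the endoplasmic reticulum and is itself an SREBP target. It had 138, 112 and 118 CPM in the Sham mice and 44.1, 37.3 and 36.9 CPM in the SCI mice (log2 fold change -1.63, standard error 0.09, adjusted p = 5.94e-09). Srebf2, which encodes SREBP2, had 256, 227 and 250.4 CPM in the Sham mice and 140, 143 and 133 CPM in the SCI mice (log2 fold change -0.82, standard error 0.07, adjusted p = 1.28e-07). In both genes no SCI mouse reached the lowest Sham mouse. Scap differed by 0.06 on the log2 scale (adjusted p = 0.442, and -0.03 with the offsets for GC content and length), with all 9 mice between 92.2 and 105.5 CPM.

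LXR is encoded by 2 genes. Nr1h3, the gene of LXRα, had 6.95, 6.82 and 7.02 CPM in the Sham mice and 19.9, 18.4 and 19.1 CPM in the SCI mice, which is 1.46 on the log2 scale (standard error 0.10, adjusted p = 7.45e-09). Nr1h2, the gene of LXRβ, ranged from 75.6 to 79.8 CPM in Sham and from 82.9 to 96.6 CPM after SCI. The log2 fold change of 0.23 passed the p-value limit (adjusted p = 0.00722) but not the fold limit, and with the same offsets it was 0.04 (adjusted p = 0.622).

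Of the lysosome and transport genes, 3 were called higher and 1 was called lower. Lipa (ENSMUSG00000024781, reverse strand, chr19:34492318-34527474 in GRCm38), the lysosomal acid lipase that splits cholesteryl esters, had 34.3, 37.9 and 40.4 CPM in the Sham mice and 213, 240.3 and 252 CPM in the SCI mice (log2 fold change 2.65, standard error 0.13, adjusted p = 3.95e-08). Npc2, which hands free cholesterol on inside the lysosome, rose from 160, 168 and 151 CPM to 516, 488 and 547 CPM (log2 fold change 1.70, adjusted p = 9.48e-11). Its membrane partner Npc1 rose from 150.2, 137 and 144 CPM to 217, 222 and 232 CPM (log2 fold change 0.64, adjusted p = 2.72e-06). Stard4, a cytosolic sterol carrier that SREBP2 is known to raise, went the other way, from 43.8, 40.04 and 45.5 CPM to 16.9, 15.8 and 15.8 CPM (log2 fold change -1.42, standard error 0.09, adjusted p = 5.12e-09).

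Of the storage, efflux and oxysterol genes, 4 were called higher and 1 was called lower. Abca1 (ENSMUSG00000015243, reverse strand, chr4:53030787-53159895 in GRCm38), which exports cholesterol to lipid-poor apolipoproteins, had 108, 86.8 and 80.8 CPM in the Sham mice and 552, 592 and 721 CPM in the SCI mice (log2 fold change 2.76, standard error 0.18, adjusted p = 1.75e-06). Abcg1, which exports it to lipoprotein particles, rose from 71.1, 66.3 and 75.6 CPM to 172, 165 and 184 CPM (log2 fold change 1.29, adjusted p = 1.83e-08). Soat1, which esterifies cholesterol for storage in lipid droplets, rose from 64.4, 67.5 and 68.6 CPM to 190, 213 and 223 CPM (log2 fold change 1.64, adjusted p = 4.56e-09). For these 3 genes every SCI mouse lay far above the highest Sham mouse. Of all genes tested 24.4% were called higher, and how many rose with such a separation was not counted.

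The 2 hydroxylase genes changed in opposite directions. Ch25h, an oxysterol-forming hydroxylase of activated macrophages, had 1.58, 1.86 and 0.836 CPM in the Sham mice and 8.30, 13.4 and 16.7 CPM in the SCI mice, the largest log2 fold change of the 32 genes at 3.17 (standard error 0.33, adjusted p = 1.21e-05). Cyp46a1 (ENSMUSG00000021259, forward strand, chr12:108334381-108362234 in GRCm38), the neuronal hydroxylase that turns cholesterol into a form able to leave the brain, had 52.5, 50.1 and 53.0 CPM in the Sham mice and 31.5, 28.4 and 27.7 CPM in the SCI mice (log2 fold change -0.83, standard error 0.07, adjusted p = 1.48e-07). The exons of Ch25h overlap Gm26902 on the opposite strand over 11.5% of their length, and the sources used here do not state whether counting used the strand. Opposite-strand overlaps were larger for Fdft1 (18.3%, with Ctsb), Scap (13.2%) and Hmgcs1 (12.1%), and smaller ones occurred in other members.

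**Figure D3:**
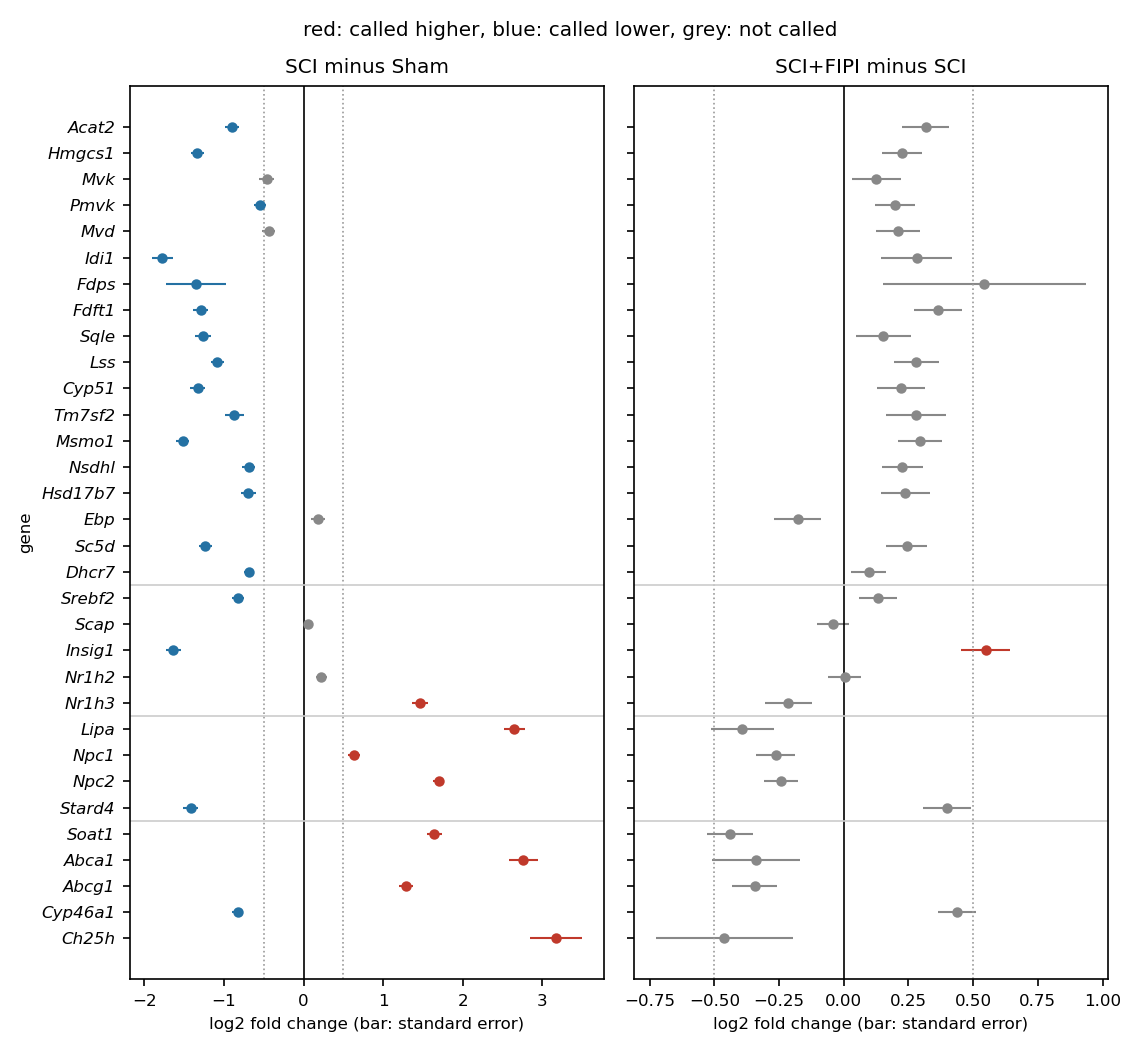
Log2 fold change of each of the 32 genes with its standard error, on the left between the SCI and Sham groups and on the right between the SCI+FIPI and SCI groups, with dotted lines at the fold limit of 0.5. On the left 19 genes are called lower and 8 higher, and on the right 1 gene, Insig1, is called. The scales of the panels differ.

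Per length, in FPKM computed with the exonic lengths of GENCODE M21, the order of the genes changed after injury. In the Sham group the highest level was that of Hmgcs1 with 58.4 ± 4.02 FPKM (SD, n = 3 mice), followed by Insig1 with 39.8 ± 4.22 FPKM (SD, n = 3 mice) and Srebf2 with 34.3 ± 1.79 FPKM (SD, n = 3 mice). The last 2 lay within the sum of their SDs, as did 21 of the 31 neighbouring pairs in that order. In the SCI group the highest was Npc2 with 93.9 ± 5.57 FPKM (SD, n = 3 mice), then Abca1 with 59.2 ± 8.44 FPKM (SD, n = 3 mice) and Lipa with 34.2 ± 2.86 FPKM (SD, n = 3 mice), which had stood at places 4, 23 and 27 in the Sham group. In the SCI+FIPI group Npc2 with 80.6 ± 3.75 FPKM (SD, n = 3 mice) and Abca1 with 47.5 ± 9.31 FPKM (SD, n = 3 mice) were again first and second. Fdps was the lowest of the 32 genes in every group, at 0.399 FPKM or less. Because of the overlap and shared sequence given above, this place may not reflect its expression.

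Markers of several cell types moved with these genes, and their part in the sterol results was not tested. The labelled tissue was matched by neuron, oligodendrocyte and astrocyte markers, which were all present in every Sham mouse. The summed level of the 18 synthesis enzymes was 1110 to 1259 CPM in the Sham group and 546 to 595 CPM in the SCI group. Over the same mice the 10 neuron markers summed to 7280 to 8204 CPM in the Sham group and 2127 to 3109 CPM in the SCI group, with 10 of 10 called lower, and the 10 oligodendrocyte markers to 33490 to 35088 CPM and 23704 to 26411 CPM, with 6 of 10 called lower. The median enzyme stood at 49.3 to 53.2 percent of its Sham mean in the SCI mice, between the median neuron marker at 26.2 to 35.9 percent and the median oligodendrocyte marker at 61.7 to 71.2 percent. Astrocyte markers did not fall as a list, with the median marker at 98.7 to 112 percent. The 8 astrocyte markers summed to 10111 to 10624 CPM in the Sham group and 13408 to 15364 CPM in the SCI group, with 3 called higher and 2 lower.

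The genes that were higher moved with markers of phagocytes, fibroblasts and endothelial cells, whose part in these results was not tested. The 10 markers of microglia and macrophages summed to 423 to 574 CPM in the Sham group and 5924 to 7125 CPM in the SCI group, with 9 of 10 called higher. The 6 markers of lipid-laden phagocytes summed to 188 to 296 CPM in the Sham group and 9743 to 11400 CPM in the SCI group, with 6 of 6 called higher. The 6 fibroblast markers summed to 329 to 926 CPM in the Sham group and 8840 to 11914 CPM in the SCI group, with 6 of 6 called higher, and the 5 endothelial markers to 239 to 263 CPM and 418 to 452 CPM, with 4 of 5 called higher. No marker of these lists was at 0 in every mouse. Over the same mice the 5 storage, efflux and oxysterol genes summed to 272 to 298 CPM in the Sham group and 953 to 1173 CPM in the SCI group.

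Other genes of the same pathways were taken from a list of 29, of which 28 were tested and Hsd3b7 was listed at 0 in every mouse. Between SCI and Sham 14 of the 28 were called higher and 5 lower, beside 24.4% and 22.5% of all genes tested, so the lower calls were not above the share of all genes. The largest rises were those of Plin2, which coats lipid droplets, from 23.2, 26.9 and 21.02 CPM to 428, 570.1 and 608 CPM (log2 fold change 4.50, adjusted p = 1.18e-06), of the lipoprotein gene Apoc1 (2.76), of Apoe (2.63), the main cholesterol carrier of the nervous system, and of Mylip (2.19), an LXR target. Apoe had 3607, 3327 and 2486 CPM in the Sham mice and 19509, 17246 and 21718 CPM in the SCI mice. Of the 5 called lower, the transporters Abca5 (-1.30) and Abcg4 (-1.15) fell most, followed by the receptor gene Vldlr (-0.82) and by Ggps1 (-0.64), which makes the isoprenoid geranylgeranyl diphosphate.

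The differences between SCI+FIPI and SCI mice were small. Only Insig1 was called higher and 0 of the 32 genes were called lower, while of all genes tested 2.36% were called higher and 0.695% lower. DESeq2 and limma-voom gave the same counts, and at an unadjusted p-value below 0.05 edgeR gave 15 of the 32 higher and 6 lower, against 13.7% and 11.5% of all genes tested. With each mouse left out in turn the count of lower calls ranged from 0 to 2, and it was 2 without SCI+FIPI mouse 1 (Lipa -0.56 and Soat1 -0.56) and 1 without SCI mouse 1 (Ch25h -0.69). Over all genes tested, 442 were called higher and 130 lower, or 352 and 204 once offsets corrected for GC content and length. By the p-value limit alone 6 genes were higher and 4 were lower, against 6.04% and 3.58% of all genes tested. In this comparison 17 of the 18 enzymes had a positive log2 fold change, with a median of 0.23, beside -0.001 over all genes tested, of which 49.7% were positive. The median was -0.25 over the lysosome and transport genes and -0.34 over the storage, efflux and oxysterol genes, where it was -0.22 without SCI mouse 3. This comparison uses the same SCI mice as the comparison with Sham, so the directions of both are not independent.

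Insig1 had 44.1, 37.3 and 36.9 CPM in the SCI mice and 54.9, 63.2 and 54.9 CPM in the SCI+FIPI mice, beside 138, 112 and 118 CPM in the Sham mice. Every SCI+FIPI mouse was above every SCI mouse and below every Sham mouse, and the log2 fold change against SCI was 0.55 (standard error 0.09, adjusted p = 0.00595). It lay just over the fold limit, and without SCI+FIPI mouse 2 it was 0.48 and was not called. Cyp46a1 had 31.5, 28.4 and 27.7 CPM in the SCI mice and 36.3, 42.0 and 40.2 CPM in the SCI+FIPI mice, a difference of 0.44 on the log2 scale (standard error 0.07, adjusted p = 0.00487), under the fold limit. Both in Cyp46a1 and in Insig1 every SCI+FIPI mouse was above every SCI mouse. The same held for 15.7% of all genes tested and 99.6% of those higher by the p-value limit. For Cyp46a1 the adjusted p-value stayed at or under 0.0371 with any mouse left out.

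Stard4 had 16.9, 15.8 and 15.8 CPM in the SCI mice and 20.6, 24.0 and 19.2 CPM in the SCI+FIPI mice (log2 fold change 0.40, standard error 0.09, adjusted p = 0.0172). Of the enzymes, Fdft1 (0.36, adjusted p = 0.0265), Acat2 (0.32, adjusted p = 0.0403) and Msmo1 (0.29, adjusted p = 0.0434) passed the p-value limit alone. Each of the 3 was higher in every SCI+FIPI mouse than in any SCI mouse, as were 15.7% of all genes tested and 99.6% of those higher by the p-value limit. With single mice left out the adjusted p-value reached 0.105 for Stard4, 0.135 for Fdft1, 0.150 for Acat2 and 0.198 for Msmo1. The other enzymes had log2 fold changes between -0.18 for Ebp and 0.54 for Fdps with adjusted p-values of 0.0558 or more.

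Several genes of cholesterol storage, efflux and release lay lower in the SCI+FIPI group. Soat1 had 190, 213 and 223 CPM in the SCI mice and 178, 138 and 146 CPM in the SCI+FIPI mice (log2 fold change -0.44, standard error 0.09, adjusted p = 0.0112). Abcg1 (-0.34, adjusted p = 0.0248), Npc1 (-0.26, adjusted p = 0.0402) and Npc2 (-0.24, adjusted p = 0.0336) also passed the p-value limit alone. In all 4 genes every SCI+FIPI mouse was below every SCI mouse, as in 14.5% of all genes tested and 98.1% of those lower by the p-value limit, but for Soat1, Abcg1 and Npc1 the value of SCI+FIPI mouse 1 was closer to the SCI mice than to the other 2 of its group. With single mice left out the adjusted p-value reached 0.0594 for Soat1, 0.124 for Abcg1, 0.198 for Npc1 and 0.174 for Npc2.

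Lipa had 213, 240.3 and 252 CPM in the SCI mice and 218, 154 and 166 CPM in the SCI+FIPI mice (log2 fold change -0.39, standard error 0.12, adjusted p = 0.0748). Whether Lipa passed the p-value limit depended on the method, as it did in 6 of the alternative fits. Among these, the adjusted p-value was 0.0105 in DESeq2, 0.0383 in limma-voom and 0.0323 in edgeR with the offsets, all under the fold limit. Abca1 had 552, 592 and 721 CPM in the SCI mice and 597, 405 and 472 CPM in the SCI+FIPI mice (log2 fold change -0.34, standard error 0.17, adjusted p = 0.263). In both genes SCI+FIPI mouse 1 lay within the range of the SCI mice and the other 2 mice lay below it. Ch25h (-0.46, adjusted p = 0.32) and Nr1h3 (-0.21, adjusted p = 0.157) did not pass the p-value limit, and Srebf2 (0.13), Scap (-0.04) and Nr1h2 (0.003) differed little.

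**Figure D4:**
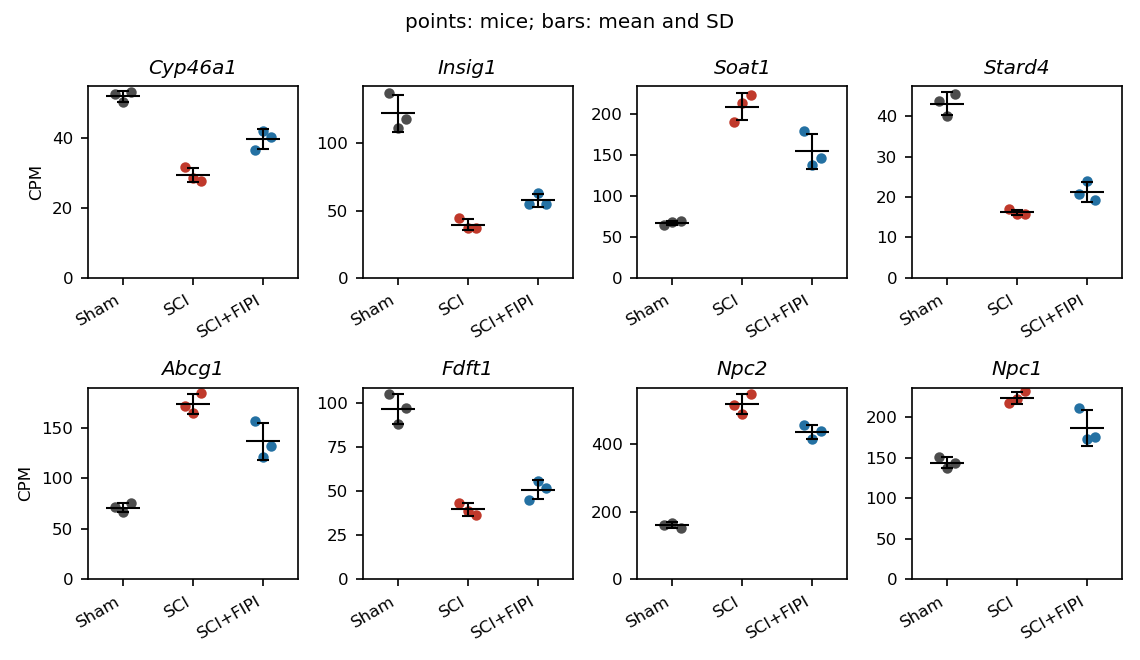
CPM in each mouse for the 8 sterol genes with the lowest adjusted p-values between SCI+FIPI and SCI, with points for mice and bars for the mean and SD of each group (n = 3 mice). In Cyp46a1, Insig1, Stard4 and Fdft1 the SCI+FIPI mice lie between the SCI and Sham mice from below, and in Soat1, Abcg1, Npc2 and Npc1 from above.

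The same mice differed in their cell type markers, whose part in these differences was not tested. The 10 neuron markers summed to 3611 to 4309 CPM in the SCI+FIPI group, above the 2127 to 3109 CPM of the SCI group, and 7 of 10 were called higher. The 18 enzymes summed to 629 to 698 CPM, above the 546 to 595 CPM of the SCI group. The 6 markers of lipid-laden phagocytes summed to 9147 CPM in SCI+FIPI mouse 1 and to 5756 and 5151 CPM in mice 2 and 3, and 0 of 6 were called. The 10 markers of microglia and macrophages summed to 4326 to 5566 CPM, below the SCI group, and 0 of 10 were called. The 10 oligodendrocyte markers summed to 24237 to 28678 CPM, which overlaps the SCI group, and 0 of 10 were called. SCI+FIPI mice 2 and 3 also stood apart in Schwann cell markers, which summed to 775 and 738 CPM, beside 251 CPM in mouse 1 and 406 to 519 CPM in the SCI group. The same 2 mice stood apart in the median of 6 bone and marrow markers, at 382 and 373 percent of the Sham mean, beside 111 percent in mouse 1 and 76.9 to 101 percent in the SCI group. These percents rest on low levels, as the 6 markers summed to 3.68 to 12.5 CPM in the Sham group, where mouse 2 stood at 175 percent. Their sum went the other way, with 72.1 to 85.3 CPM in the SCI group and 19.6, 35.1 and 36.5 CPM in SCI+FIPI mice 1, 2 and 3. Of the 6 markers, Bglap was called higher and Col10a1 lower between SCI+FIPI and SCI.

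**Figure D5:**
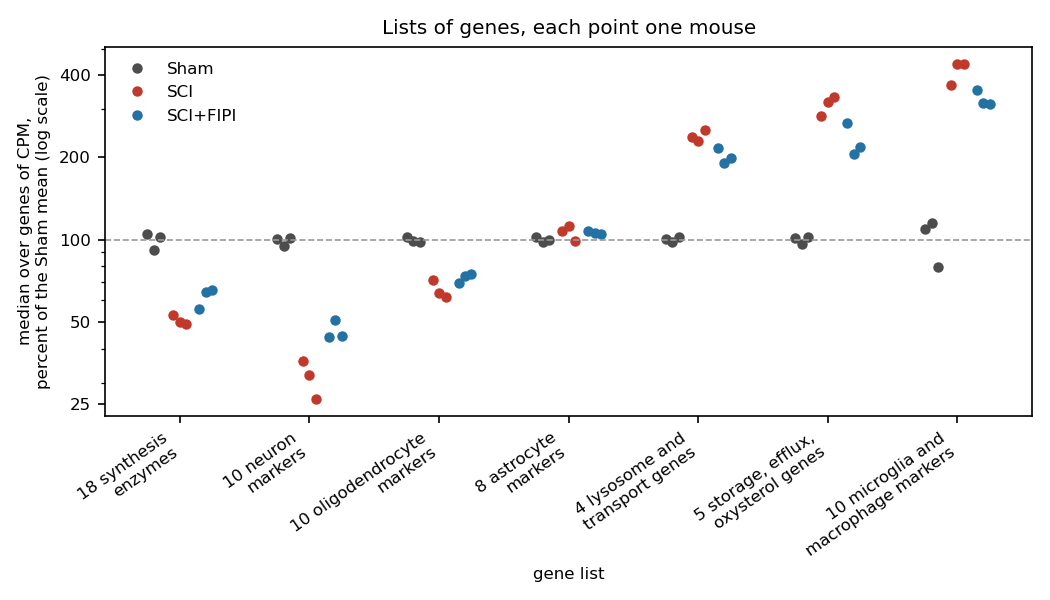
Median over the genes of each list of the level in a mouse as percent of the gene's Sham mean, on a log scale, for sterol lists and cell type markers, with each point 1 mouse. The SCI+FIPI points of the enzymes, neuron markers and phagocyte markers lie closer to the dashed line at 100 percent than the SCI points, with SCI+FIPI mouse 1 nearest to the SCI mice in the enzymes (55.8 percent) and in the markers of microglia and macrophages (354 percent).

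Of the 28 other sterol genes tested, 4 passed the p-value limit alone between SCI+FIPI and SCI in edgeR's test. The transporters Abcg4 (0.32) and Abca5 (0.28) were higher, and the receptors Lrp1 (-0.29) and Scarb1 (-0.22) were lower, beside 6.04% and 3.58% of all genes tested, so 2 of 28 higher is near the share of all genes. Abcg4 had 40.2, 37.3 and 36.3 CPM in the SCI mice and 46.8, 47.3 and 47.9 CPM in the SCI+FIPI mice, beside 85.6, 78.1 and 89.4 CPM in the Sham mice. Every SCI+FIPI mouse was above every SCI mouse, as in 15.7% of all genes tested, and below every Sham mouse.

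Compared with Sham, 7 of the 32 genes were called higher in the SCI+FIPI group and 14 were called lower, while of all genes tested 21.2% were called higher and 17% lower. Offsets that correct for GC content and length put the median over all genes at -0.14 here and called 20 of the 32 lower, and over all genes 3126 higher and 4333 lower, in place of 3957 and 3171. The 7 were Nr1h3 (1.25), Lipa (2.25), Npc2 (1.46), Soat1 (1.202), Abca1 (2.42), Abcg1 (0.95) and Ch25h (2.71), and the 14 were 11 enzymes with Srebf2 (-0.69), Insig1 (-1.08) and Stard4 (-1.02). The 11 enzymes lay between -0.58 for Acat2 and -1.49 for Idi1. Npc1 (0.38) and Cyp46a1 (-0.39) passed the p-value limit but not the fold limit here. This comparison shares the Sham mice and the SCI+FIPI mice with the other comparisons.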

How the data were processed

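Poly(A)-selected RNA of a cord segment around the injury was sequenced in 9 mice, 3 per group. The authors trimmed low-quality and adapter sequences, counted reads per gene and deposited raw counts for 52550 genes, with no normalization. The submitters' processing notes name GRCm38 and R 4.2.3. The aligner, the counter and the strand setting are not given in the sources used here. The table held no columns of other samples or of the authors' own comparisons.

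Analysis used edgeR 4.0.16 in R 4.3.3 (TMM factors, filterByExpr by group, robust quasi-likelihood fit to all 9 mice, 18699 genes tested), with Benjamini-Hochberg adjustment over all genes tested. Limits were an absolute log2 fold change of 0.5 and an adjusted p-value of 0.05. CPM used TMM-scaled totals, and FPKM the total count and the exonic length. The common dispersion corresponded to a biological coefficient of variation of 9.3%, and low counts such as those of Fdps and Ch25h carry larger counting error. GENCODE M21 held 52403 of the gene identifiers. Alternatives used other factors, other filters, DESeq2 1.42.0, limma-voom (limma 3.58.1), a replicate block, offsets correcting for GC content and length, other limits and each mouse left out. The steps were tested on simulated data. Without added bias, the main fit made 9 false calls between SCI and Sham and 0 between SCI+FIPI and SCI. With a GC bias put into the simulated SCI mice, it made 1131 and 1085 false calls in these comparisons. With the offsets for GC content and length the false calls were 9 and 0. The size of that bias was a chosen setting and was not estimated from these mice. Promoter motifs were searched with Python 3.11.15.

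The 32 genes, the other gene lists and the marker lists were chosen with earlier results of these data known. All 32 genes are accounted for. Results of 3 other sterol genes are not reported here. Of the rest, up to 4 called in each direction of each comparison are named, with those past the p-value limit alone between SCI+FIPI and SCI added after their values were seen.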

Additional observations from a re-analysis of the deposited data

How the results depend on the processing

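Between SCI and Sham the sterol genes called were 7 to 9 higher and 19 to 21 lower under the alternatives tried, except that a log2 fold limit of 1 left 11 lower. Single mice left out gave 8 higher and 19 to 21 lower. Between SCI+FIPI and Sham they were 6 to 9 higher and 14 to 20 lower, except that a fold limit of 1 left 7 lower, and single mice left out gave 7 higher and 14 to 16 lower. Between SCI+FIPI and SCI the count higher was 1, and it was 6 with no fold limit, 0 with a fold limit of 1, and 0 to 1 with single mice left out. The count lower was 0, and it was 4 with no fold limit and 0 to 2 with single mice left out. Over all genes tested this comparison gave 442 higher and 130 lower calls, which ranged with single mice left out from 166 higher and 23 lower when SCI+FIPI mouse 2 was dropped to 781 higher and 257 lower when SCI mouse 1 was, and was 352 and 204 with the offsets that correct for GC content and length. The offsets moved the median log2 fold change over all genes to -0.11 between SCI and Sham and to -0.14 between SCI+FIPI and Sham, and that of the 18 enzymes to -1.09 and -0.81.

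The replicate numbers did not pair the mice, with correlations of deviations between -0.07 and 0.11, and the replicate block left the counts as they were except for 15 in place of 14 lower genes between SCI+FIPI and Sham. The direction turned only for genes with differences close to 0. Between SCI and Sham Ebp was -0.0993 with the offsets and -0.102 with block and offsets, and Scap was -0.00935 with upper-quartile factors, -0.0300 with the offsets and -0.0295 with both. Between SCI+FIPI and SCI Nr1h2 was -0.00101 with no filter, -0.0532 with the offsets, -0.0513 with both, and -0.0644 to 0.0426 with single mice left out. Between SCI+FIPI and Sham Ebp was -0.000809 with RLE factors, -0.0425 with upper-quartile factors, -0.000618 with DESeq2, -0.302 with the offsets, -0.302 with both and -0.0632 to 0.0564 with single mice left out. There Scap was -0.0296 with upper-quartile factors, -0.121 with the offsets, -0.121 with both and -0.0313 to 0.0576 with single mice left out, and Nr1h2 was -0.0157 with the offsets and -0.0150 with both. For single genes the p-value limit was crossed in 66 fits between SCI+FIPI and SCI, 3 between SCI and Sham and 14 between SCI+FIPI and Sham, among them Ebp with the offsets (adjusted p = 0.00889). The cause of these moves was not tested. With 10 to 57 counts, Fdps carries a large counting error, and its overlap and shared sequence with other genes leave these counts uncertain.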
